A study of Homo sapiens with 4 samples.

Results

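The aminoacyl-tRNA synthetases are described here by the mRNA level of 35 genes, matched by symbol among the 61498 genes of the deposited tables and followed by gene identifier into every library. They comprise 19 genes for cytosolic enzymes, with symbols ending in 1 or named FARSA and FARSB, and 16 genes for mitochondrial enzymes, with symbols ending in 2. All 35 had enough reads to pass the filter on low counts, which left 14458 genes. The rule that chose the genes used their names and not their values, but earlier results of these data were known.

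The libraries hold poly(A) RNA of K562 cells, an established human erythroleukaemia line that moves toward the erythroid state when given hemin, the iron-containing porphyrin of haemoglobin. The design compared 2 libraries of untreated cells with 2 libraries of cells kept in 50 µM hemin for 108 h, and nothing else separated the groups by their labels. Expected counts, which are RSEM's estimates of the reads from each gene, summed to between 7455447 and 8241534 per library. The labels call the libraries replicates without saying whether they came from separate cultures, so the p-values below measure only the spread between these libraries, which may be technical. The 7 erythroid and leukaemic line markers examined (GATA1, KLF1, TAL1, GFI1B, HBG1, HBG2 and HBE1) each had 299 to 9983 counts in every library. In contrast, markers of B cells, T cells and monocytes summed to 0 to 14 counts per library, with 1 of 3 B cell and 2 of 3 T cell markers at 0 in every library. The 3 fibroblast markers summed to 121 and 130 counts in untreated and 80 and 97 counts in hemin-treated libraries, and their part in the results was not tested. Most of these counts were of COL1A2, with 108 and 121 in untreated and 72 and 88 in hemin-treated libraries. COL1A1 had 13 and 9 counts before and 7 and 8 after hemin, and DCN had 0 and 0 before and 1 and 1 after. In bulk RNA, fewer cells that express a gene and less of its RNA per cell cannot be told apart.

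An aminoacyl-tRNA synthetase joins one amino acid to the tRNAs that carry its anticodons. Cells of vertebrates keep one set of these enzymes for cytosolic translation and another, encoded by separate nuclear genes and imported, for the ribosomes of mitochondria. GARS1 and KARS1 are exceptions, since each encodes both the cytosolic and the mitochondrial enzyme for glycine or lysine, and EPRS1 joins the enzymes for glutamate and proline in one protein. Many cytosolic synthetase genes are known targets of ATF4, the transcription factor that is made when eIF2 is phosphorylated during amino acid shortage or other stress. In erythroid cells one of the kinases of eIF2 is held inactive by heme.

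Because ATF4 acts with C/EBP proteins through an element read as TGATGNAA (N is any base), the promoters of the genes were searched for it. The RefSeq promoter table (GRCh38.p14) held 30 of the 35 genes, each with 300 bases, from 250 before to 50 after the annotated start. LARS1, VARS1, YARS1, AARS2 and VARS2 were the genes without an entry. The element was found on either strand in 6 of 16 cytosolic promoters and 1 of 14 mitochondrial ones, against 3.67% of all 27305 promoters of this length. All 6 cytosolic genes belonged to a list of 13 ATF4-responsive cytosolic synthetases, of which 10 had a promoter in the table. The matches are printed 5′ to 3′ on the strand that holds the element, 30 bases each. The element is in capitals, to show the letter at N and the bases around it:
AARS1: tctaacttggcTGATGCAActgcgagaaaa
CARS1: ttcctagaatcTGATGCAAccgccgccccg
IARS1: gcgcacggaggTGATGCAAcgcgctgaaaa
MARS1: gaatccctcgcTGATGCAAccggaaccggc
NARS1: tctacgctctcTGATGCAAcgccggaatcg
TARS1: gctggaccagcTGATGCAAtcgaaaggcgc
YARS2: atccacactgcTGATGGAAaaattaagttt

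The search fixed every letter but N, so only that letter could differ between the matches. It was C in all 6 cytosolic genes (TGATGCAA) and G in the mitochondrial gene YARS2 (TGATGGAA). On GRCh38, the windows lie at chr16:70289675-70289704 on the plus strand for AARS1, chr11:3057407-3057436 on the plus strand for CARS1 and chr9:92293692-92293721 on the plus strand for IARS1. Those on the minus strand lie at chr12:57488053-57488082 for MARS1, chr18:57621804-57621833 for NARS1, chr5:33440956-33440985 for TARS1 and chr12:32756076-32756105 for YARS2. The elements of CARS1, IARS1 and MARS1 began 2, 13 and 4 bases before the RefSeq start, and those of TARS1 and NARS1 began 2 and 14 bases after it. By the GENCODE annotation, those 5 windows overlap an untranslated exon of their own gene, and that of MARS1 also lies within the gene ARHGAP9. In AARS1 and YARS2 the element was farther out, at 187 and 197 bases before the start. By GENCODE the AARS1 window lies in an untranslated exon of a transcript of AARS1 itself and also in an exon of the neighbouring gene DDX19B, and the YARS2 window in an exon of the unnamed gene ENSG00000286950. A match is a description of the letters and not evidence that a factor binds there.

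The promoters were searched for other short elements in the same way, in 16 cytosolic and 14 mitochondrial genes. The palindrome CACGTG (the E-box, in 7.43% of all promoters) occurred in IARS1 and in the mitochondrial genes CARS2, EARS2 and MARS2. GCGCATGC, one arm of the site of NRF1, a regulator of nuclear genes for mitochondria, occurred in MARS2 and YARS2 and in no cytosolic gene, against 3.27% of all promoters. CCGGAAGT, the core of the ETS family site (4.44% of all promoters), occurred in CARS1, HARS1, NARS1 and WARS1 and in EARS2, HARS2 and PARS2. The RefSeq starts of HARS1 and HARS2, which point away from each other, are separated by 84 bases. This stretch held 2 ETS matches, and these same sites were counted for both genes.

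Before any treatment, the cytosolic enzymes had the higher mRNA levels. In TPM, a level scaled by transcript length and sequencing depth, the mean of the untreated libraries ran from 43.28 for FARSB, the beta subunit of the phenylalanine enzyme, to 601.2 for WARS1, the tryptophan enzyme. The mitochondrial enzymes ran from 11.5 TPM to the 86.16 TPM of IARS2, the isoleucine enzyme. The median gene tested had 15.3 TPM, and all 19 cytosolic but 11 of 16 mitochondrial genes lay above it. The ranges overlapped little, since 2 mitochondrial genes were above the lowest cytosolic one and 2 cytosolic genes were below the highest mitochondrial one.

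**Figure D1:**
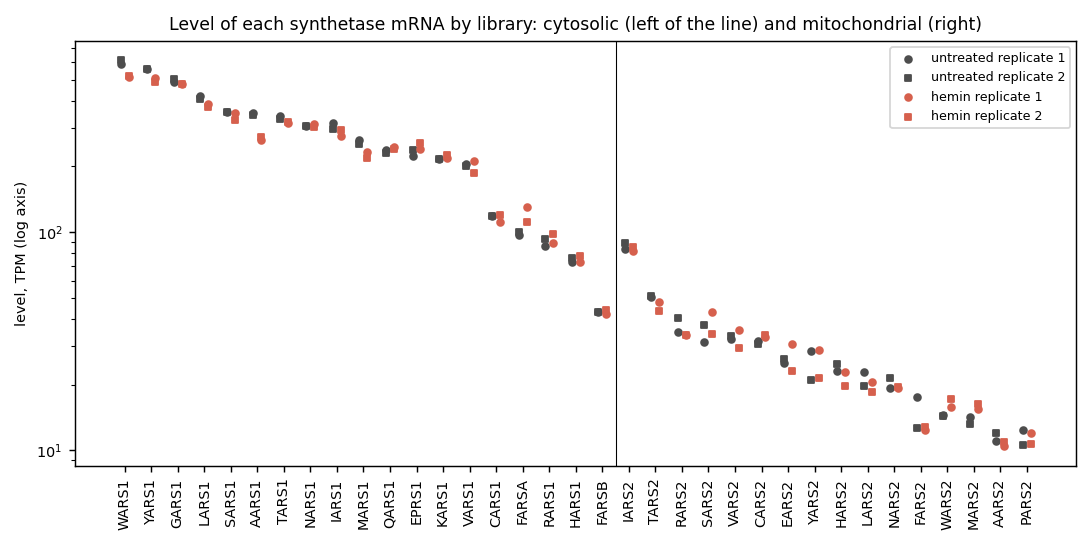
The plot gives the level of each synthetase mRNA in TPM (log axis) in each of the 4 libraries, with cytosolic enzymes left of the line and mitochondrial ones right of it, each ordered by level; points are single libraries (untreated in grey, hemin in red). WARS1 is the highest at 601.2 TPM in untreated cells, and IARS2 at 86.16 TPM stands above the other mitochondrial enzymes.

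The summed level of the cytosolic enzymes was 5293.24 and 5281.98 TPM in the untreated libraries and 4996.88 and 4952.38 TPM in the hemin-treated ones. The sum was thus 5287.6 ± 7.96 TPM (SD, n = 2) before and 4974.6 ± 31.5 TPM (SD, n = 2) after hemin, and the groups did not overlap. The mitochondrial sum was 452.29 and 458.18 TPM in untreated cells and 463.1 and 431.15 TPM after hemin, so that the untreated values lay between the treated ones. The cytosolic sum was 11.7 and 11.53 times the mitochondrial one in the untreated libraries, and 10.79 and 11.49 times in the hemin-treated libraries. TPM has no correction for differences in composition between libraries. With such a correction the median log2 fold change of the cytosolic enzymes on counts was -0.030, and with library size only it was -0.069. The sums were not tested.

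After hemin, 1 synthetase mRNA rose and 1 fell, and both encode cytosolic enzymes. FARSA, the alpha subunit of the phenylalanine enzyme, rose by 25.8%, while AARS1, the alanine enzyme, decreased by 22.7%. These are the genes whose p, from the quasi-likelihood test of edgeR, was below 0.05 after Benjamini-Hochberg adjustment over all genes tested. Across all genes 14.1% passed this threshold, 7.0% higher and 7.14% lower, so that the 2 of 35 synthetases (5.71%) were a smaller share than in the whole table. The median log2 fold change of the 35 genes was -0.025, and that of all genes tested was -0.0048.

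AARS1 (ENSG00000090861, chr16:70251983-70289707, minus strand) had 6480 and 6116 expected counts in the untreated libraries and 4695 and 5101 in the hemin-treated libraries. Its level was 349.50 and 342.98 TPM in untreated cells and 265.00 and 272.53 TPM after hemin. Both treated libraries were below both untreated ones on either scale, and the libraries of a group lay close together. The log2 fold change was -0.37 (SE 0.037, 95% interval -0.45 to -0.29, adjusted p = 0.000502 by edgeR). DESeq2 gave an adjusted p of 7.15e-14, whereas limma on log2(TPM + 1) gave a log2 fold change of -0.36 with an adjusted p of 0.0633, which did not pass the threshold. Among the cytosolic enzymes AARS1 stood apart: the next lowest, WARS1, differed by -0.12.

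FARSA (ENSG00000179115, chr19:12922479-12934037, minus strand) had 872 and 839 counts in the untreated libraries and 1081 and 1082 after hemin. Its level rose from 96.90 and 99.91 TPM to 130.79 and 111.47 TPM. The treated libraries were above the untreated ones on both scales, but they were farther from each other in TPM than in counts. The log2 fold change was 0.33 (SE 0.056, 95% interval 0.21 to 0.46, adjusted p = 0.00561 by edgeR, 0.00099 by DESeq2 and 0.187 by limma on log2(TPM + 1)). The enzyme is a tetramer of equal numbers of alpha and beta subunits. FARSB, the beta subunit, had 1624 and 1573 counts before and 1525 and 1744 counts after hemin, with overlapping groups and a log2 fold change of 0.02 (SE 0.045, 95% interval -0.08 to 0.12, adjusted p = 0.787 by edgeR). The difference between both subunits in log2 fold change was 0.31 with a combined SE of 0.072, and it was not tested further. In TPM, FARSA was 2.24 and 2.31 times FARSB in the untreated libraries and 3.1 and 2.53 times FARSB in the treated ones.

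**Figure D2:**
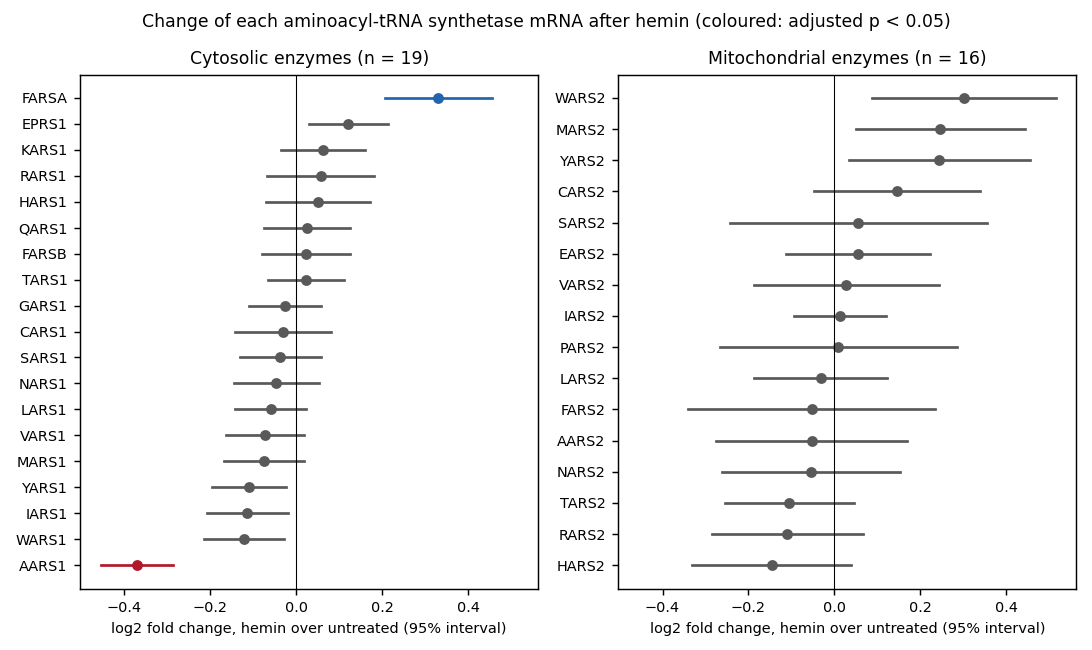
Points are the fitted log2 fold changes of hemin over untreated cells by edgeR for the 19 cytosolic (left) and 16 mitochondrial (right) enzymes, and lines are 95% intervals. Of the 35 genes, FARSA (0.33) and AARS1 (-0.37) are coloured because their adjusted p was below 0.05, and the mitochondrial intervals are wider.

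The other 17 cytosolic enzymes had log2 fold changes between -0.12 and 0.12, and their 95% intervals lay within -0.21 and 0.21. For these genes a change larger than those bounds was outside the interval of each gene at this depth. The next highest was EPRS1, with 5110 and 4951 counts before and 5154 and 5864 after hemin, and a log2 fold change of 0.12 (SE 0.041, adjusted p = 0.0786 by edgeR). KARS1 followed with 2253 and 2251 counts before and 2270 and 2464 after hemin, a log2 fold change of 0.06 (SE 0.043, adjusted p = 0.382 by edgeR). For both, the scaled values of the treated libraries were above those of the untreated ones, but the differences did not pass the test.

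At the other end, WARS1 had 5723 and 5578 counts before and 4892 and 5572 after hemin, with a log2 fold change of -0.12 (SE 0.041, adjusted p = 0.083 by edgeR). IARS1, which joins isoleucine, had the most counts of all the synthetases, 8212 and 7556 before and 6818 and 7845 after hemin, with a log2 fold change of -0.11 (SE 0.042, adjusted p = 0.102 by edgeR). After scaling to library size, the groups of these 2 genes did not overlap. YARS1, the tyrosine enzyme, was close to both, with 6278 and 5959 counts before and 5536 and 5863 after hemin (log2 fold change -0.11, SE 0.038, adjusted p = 0.086 by edgeR). Without hemin replicate 2, IARS1 passed the threshold (adjusted p = 0.0446 by edgeR), and without hemin replicate 1, EPRS1 did (0.0352). Scaling by library size only, in place of TMM, brought IARS1, WARS1 and YARS1 past it, with adjusted p of 0.0321, 0.0234 and 0.0281.

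By the order of the scaled values alone, both treated libraries were above both untreated ones in 3 of the 19 cytosolic genes and below in 8. The corresponding shares of all genes tested were 28.1% above and 29.3% below. At an unadjusted p under 0.05, 2 cytosolic genes were higher and 4 were lower, against 14.8% and 14.6% of all genes. The median log2 fold change of the cytosolic enzymes was -0.030.

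None of the 16 mitochondrial enzymes passed the adjusted threshold in edgeR, DESeq2 or limma, against 14.1% of all genes in edgeR. At an unadjusted p under 0.05 in edgeR, WARS2, MARS2 and YARS2 were higher and none was lower, against 14.8% and 14.6% of all genes. The lowest adjusted p was 0.0645. Their median log2 fold change was 0.011. Both treated libraries were above both untreated ones in 4 genes and below them in 4, and the groups overlapped in the other 8. The shares of all genes tested were 28.1% above and 29.3% below. These genes had 107 to 1763 counts per library, fewer than most cytosolic ones (839 to 8212), and their 95% intervals reached from -0.34 to 0.51. A rise of the size seen in FARSA (0.33) lay inside the interval of some of them and was not excluded there. A fall of the size seen in AARS1 (-0.37) lay outside all 16 intervals.

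WARS2, the mitochondrial tryptophan enzyme, had 188 and 189 counts before and 234 and 233 after hemin, with a log2 fold change of 0.30 (SE 0.095, adjusted p = 0.0645 by edgeR). MARS2, the methionine enzyme, had 237 and 213 counts before and 248 and 289 after hemin, with a log2 fold change of 0.25 (SE 0.087, adjusted p = 0.0917 by edgeR). In both genes the treated libraries were above the untreated ones, also in TPM. YARS2, the tyrosine enzyme, had 179 and 166 counts before and 193 and 218 after hemin, with a log2 fold change of 0.24 (SE 0.094, adjusted p = 0.116 by edgeR). Its TPM did not separate the groups: the levels were 28.49 and 21.05 TPM before and 28.81 and 21.51 TPM after hemin.

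The lowest mitochondrial values belonged to HARS2, RARS2 and TARS2, the enzymes for histidine, arginine and threonine. HARS2 had 270 and 268 counts before and 233 and 256 after hemin, a log2 fold change of -0.15 (SE 0.082, adjusted p = 0.281 by edgeR). RARS2 had 381 and 400 counts before and 354 and 374 after hemin, a log2 fold change of -0.11 (SE 0.078, adjusted p = 0.399 by edgeR). TARS2 had 534 and 552 counts before and 482 and 534 after hemin, a log2 fold change of -0.10 (SE 0.067, adjusted p = 0.344 by edgeR). The scaled values of these 3 genes did not overlap between groups, yet none passed the test. The gene models of HARS1 (chr5:140673035-140691537, minus strand) and HARS2 (chr5:140691430-140699305, plus strand) overlap at their starts, and since the strand setting of the counting is not given in the sources used here, reads from the overlap cannot be assigned to one of them with certainty.

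**Figure D3:**
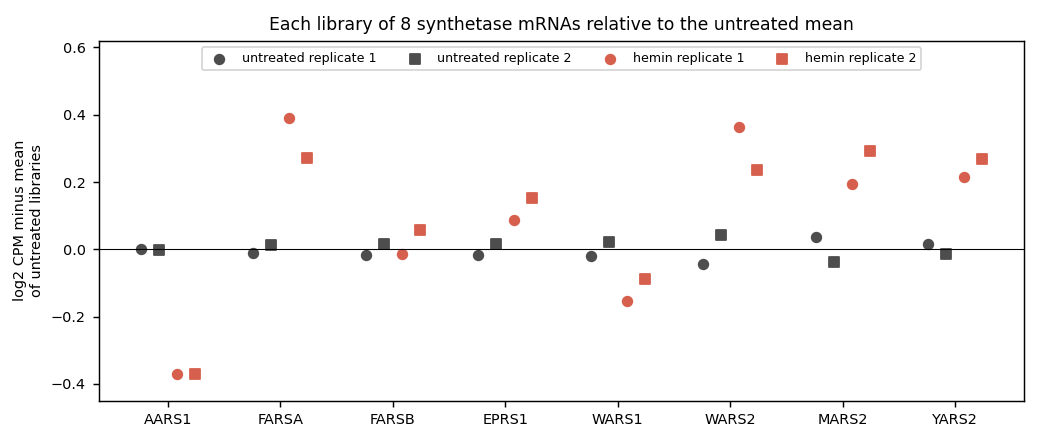
Each point is 1 library of 1 gene, as log2 CPM (counts scaled to library size) minus the mean of the untreated libraries of that gene; grey marks untreated and red hemin-treated libraries. The treated libraries of AARS1 lie together far below the untreated ones (log2 fold change -0.37), those of FARSA, WARS2, MARS2 and YARS2 lie above, and those of FARSB lie on both sides of 0.

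For 13 amino acids the list held a cytosolic and a mitochondrial enzyme encoded by separate genes, which allowed a comparison within each amino acid. In untreated cells the cytosolic mRNA was the more abundant in all 13, by a TPM ratio of 2.38 for arginine to 41.7 for tryptophan, with a median of 10.3. After hemin, the log2 fold change was the more positive in the mitochondrial enzyme for 9 amino acids and in the cytosolic enzyme for 4. The median difference, cytosolic minus mitochondrial, was -0.10. This count was 7 without hemin replicate 1 and 10 without hemin replicate 2.

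The difference exceeded 2 combined standard errors in 5 of the 13. It was -0.42 (SE 0.10) for tryptophan, -0.35 (SE 0.10) for tyrosine, -0.32 (SE 0.097) for methionine and -0.32 (SE 0.11) for alanine, and with the opposite sign 0.20 (SE 0.099) for histidine. Histidine was only just beyond this bound, at 2.003 combined standard errors, and isoleucine (-0.13, SE 0.064) just within it, at 1.993. Reads from the overlap of HARS1 and HARS2 cannot be assigned to one of them with certainty. In alanine the difference came with the fall of AARS1, as AARS2 had a log2 fold change of -0.05, while in tryptophan, tyrosine and methionine neither enzyme passed the threshold alone. The WARS1 to WARS2 ratio in TPM was 40.67 and 42.73 before and 32.27 and 30.09 after hemin, so that the groups were apart. For MARS1 to MARS2 it was 18.56 and 19.08 before and 15.07 and 13.43 after hemin, and for AARS1 to AARS2 31.77 and 28.42 before and 25.41 and 24.91 after. The YARS1 to YARS2 ratio overlapped between the groups, at 19.7 and 26.45 before and 17.62 and 22.69 after hemin. No p is given for these differences.

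**Figure D4:**
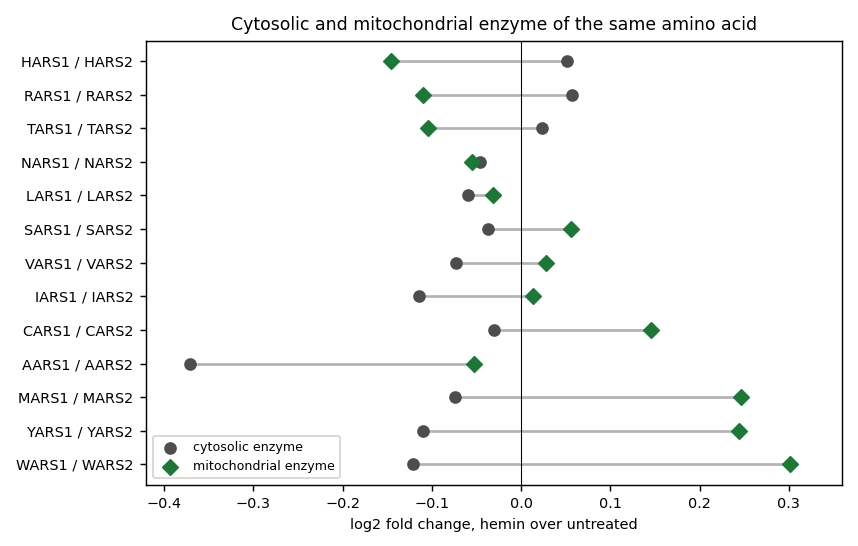
The axis is the fitted log2 fold change of hemin over untreated cells for the cytosolic (grey circle) and mitochondrial (green diamond) enzyme of the same amino acid, joined by a line, for 13 amino acids ordered by their difference. The diamond is to the right of the circle in 9 and to the left in 4, with the widest gap in tryptophan (-0.42, cytosolic minus mitochondrial).

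The phenylalanine and glutamate enzymes have no such simple partner. FARS2, a single-chain mitochondrial enzyme for phenylalanine, had a log2 fold change of -0.05 beside the 0.33 of FARSA and the 0.02 of FARSB. EARS2 and PARS2, the mitochondrial enzymes for glutamate and proline, had log2 fold changes of 0.06 and 0.0087 beside the 0.12 of EPRS1, which serves both amino acids in the cytosol.

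Synthetases fall into class I and class II, which are unrelated in their catalytic fold. EPRS1 was counted in class I only, although it also holds the proline enzyme, and PARS2, the mitochondrial proline enzyme, in class II. None of the 19 class I genes passed the adjusted threshold in edgeR, DESeq2 or limma, and their median log2 fold change was 0.013. At an unadjusted p under 0.05 in edgeR, 4 were higher and 3 lower, against 14.8% and 14.6% of all genes. Both AARS1 and FARSA belong to the 16 class II genes, whose median was -0.031, and 2 of 16 (12.5%) stands beside 14.1% of all genes. The difference between the classes was not tested. The 7 cytosolic enzymes that sit in the multi-synthetase complex (EPRS1, IARS1, KARS1, LARS1, MARS1, QARS1 and RARS1) had a median of 0.025, and the 12 cytosolic ones outside it had a median of -0.034. None of the 7 passed the adjusted threshold in edgeR, DESeq2 or limma. At an unadjusted p under 0.05 in edgeR, 1 was higher and 1 lower, against 14.8% and 14.6% of all genes. The 3 scaffold proteins of that complex, AIMP1, AIMP2 and EEF1E1, had a median of 0.076, and none of them passed the threshold in any of these tools or at an unadjusted p under 0.05 in edgeR.

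The cytosolic enzymes were also listed by what is known of their response to ATF4. Of the 13 ATF4-responsive ones, 11 had a negative log2 fold change, and the median was -0.060. Both treated libraries were below both untreated ones in 8, against 29.3% of all genes tested. AARS1 alone passed the adjusted threshold in edgeR, 7.69% of the list, against 14.1% of all genes. The positive values were those of EPRS1 (0.12) and TARS1 (0.02). Of the other 6 (FARSA, FARSB, HARS1, KARS1, QARS1 and RARS1), all had a log2 fold change above 0, and their median was 0.054. Both treated libraries were above in 2, against 28.1% of all genes. FARSA alone passed the adjusted threshold in edgeR, 16.7% of this list, against the same 14.1% of all genes. Of the 14458 genes tested, 7357 had a negative and 7101 a positive log2 fold change. Of the other 6 cytosolic enzymes, the number above 0 was 4 when scaled by library size only, and 5 in limma on TPM or without untreated replicate 2 or hemin replicate 2. The values are mostly within the intervals of single genes, and the split between the lists was not tested. Of the 6 cytosolic genes printed above with the TGATGCAA element, AARS1 fell. CARS1, IARS1, MARS1 and NARS1 had log2 fold changes of -0.03, -0.11, -0.07 and -0.05, and TARS1 had 0.02, none past the threshold.

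The other genes of the amino acid response moved in both directions. ATF4 itself had 3204 and 3122 counts before and 3228 and 3550 after hemin, a log2 fold change of 0.09 (SE 0.040, adjusted p = 0.162 by edgeR). Among 26 genes of this response, 5 fell and 2 rose past the adjusted threshold, against 7.14% lower and 7.0% higher among all genes tested, and their median was -0.079. The count of 5 was 3 without untreated replicate 2 or hemin replicate 2, 3 by DESeq2 and 9 when scaled by library size only, and the count of 2 was 1 without untreated replicate 1 or hemin replicate 2 and 0 by limma.

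DDIT4, an inhibitor of the growth kinase mTORC1, had 2686 and 2706 counts before and 1723 and 1843 after hemin (log2 fold change -0.61, SE 0.046, adjusted p = 0.000142 by edgeR). CHAC1, which degrades glutathione, had 284 and 273 counts before and 149 and 165 after hemin (log2 fold change -0.83, SE 0.088, adjusted p = 0.000667 by edgeR). ASNS, the asparagine synthetase, had 5419 and 5355 counts before and 4044 and 4412 after hemin (log2 fold change -0.36, SE 0.040, adjusted p = 0.000802 by edgeR). These 3 genes fell as AARS1 did, and the decrease of ASNS was of about the same size as that of AARS1. Of the 19 promoters of this list in the RefSeq table, 4 held the TGATGNAA element, those of CHAC1, ASNS, SLC3A2 and SLC7A1.

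Both genes of the list that rose encode amino acid carriers of the plasma membrane. The other SLC genes of the list did not pass the threshold in edgeR. Their log2 fold changes were 0.04 for SLC7A5, 0.07 for SLC7A11, 0.08 for SLC1A5 and -0.06 for SLC3A2. SLC7A1, a carrier of arginine and lysine, had 1629 and 1590 counts before and 1839 and 2069 after hemin (log2 fold change 0.27, SE 0.044, adjusted p = 0.00465 by edgeR). SLC38A2, a carrier of neutral amino acids, had 1399 and 1382 counts before and 1536 and 1687 after hemin (log2 fold change 0.20, SE 0.044, adjusted p = 0.0161 by edgeR). The call of SLC38A2 was lost without untreated replicate 1 (adjusted p = 0.0921) and without hemin replicate 2 (0.0538), and limma on log2(TPM + 1) gave -0.026.

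Of 7 kinases, phosphatase subunits and the alpha subunit of eIF2 that set this pathway, EIF2AK1 passed the threshold, and 1 of 7 is close to the 14.1% of all genes. It encodes the kinase that is inhibited by heme. EIF2AK1 had 2152 and 2008 counts before and 1656 and 1919 after hemin, a log2 fold change of -0.23 (SE 0.046, adjusted p = 0.0119 by edgeR and 0.0102 by DESeq2). The treated libraries were below the untreated ones but differed among themselves, and the call was lost without untreated replicate 1 (adjusted p = 0.0621) or hemin replicate 1 (0.0546). It was also lost in limma on log2(TPM + 1), where the log2 fold change was -0.42 (adjusted p = 0.0864). The 7 genes had a median of -0.040.

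Other steps of tRNA use and of mitochondrial translation were followed in 3 lists, in which 2 genes passed the threshold in edgeR, 1 of 10 and 1 of 13, against 14.1% of all genes. The first list held 5 genes with a part in tRNA delivery to the ribosome or export from the nucleus (EEF1A1, EEF1B2, EEF1D, EEF1G and XPOT). None of the 5 passed the adjusted threshold in edgeR, DESeq2 or limma. At an unadjusted p under 0.05 in edgeR, 1 of the 5 was higher, against 14.8% of all genes. Their median log2 fold change was 0.036. Of 10 genes that mature, proofread or release tRNA, TRNT1, which adds the CCA end, had 266 and 260 counts before and 310 and 340 after hemin (log2 fold change 0.30, SE 0.077, adjusted p = 0.0334 by edgeR). This call was lost without any single library (adjusted p of 0.0618 to 0.145) and by DESeq2 (0.185). Of 13 mitochondrial translation factors, GFM1, an elongation factor of the mitochondrial ribosome, had 367 and 335 counts before and 433 and 498 after hemin (log2 fold change 0.40, SE 0.071, adjusted p = 0.00708 by edgeR). It rose in this test, but the call was lost in limma on log2(TPM + 1) (log2 fold change 0.42, adjusted p = 0.139). The median of the 13 genes was 0.082, beside the 0.011 of the mitochondrial synthetases.

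**Figure D5:**
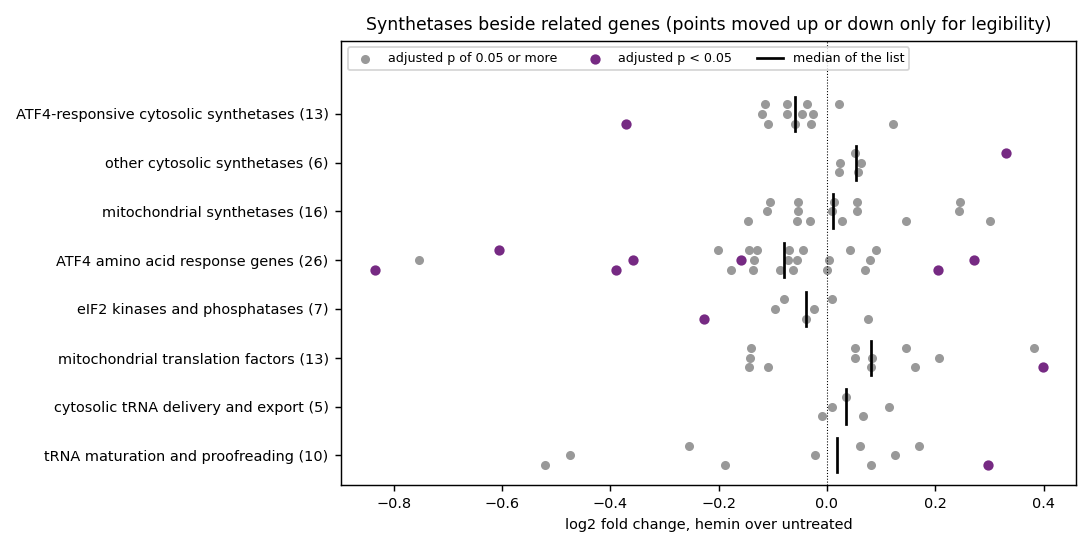
Each point is 1 gene, placed by its fitted log2 fold change of hemin over untreated cells, in lists with their number of genes in brackets; black bars are list medians and purple points had an adjusted p below 0.05 by edgeR. The ATF4-responsive cytosolic synthetases have a median of -0.060 and the other cytosolic ones 0.054, and the ATF4 amino acid response genes spread the most widely, with CHAC1 at -0.83.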

How the data were processed

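Reads of poly(A) RNA from 4 K562 libraries were trimmed and quantified by the authors. The submitters' processing notes name Trimmomatic 0.39, STAR 2.7.5c, RSEM 1.3.1, SAMtools 1.15 and deepTools 3.5.1 and the build GRCh38. The deposited expected counts are RSEM's estimate of how many reads came from a gene, without normalization, and RSEM splits a read that fits several genes. The deposited TPM values are scaled by transcript length and depth, and the authors' mean TPM per group equals the mean of both libraries. Other deposited columns give the posterior mean count, its SD and gene lengths. FPKM tables were not used. The posterior SD exceeded 1% of the count in 3 synthetases, SARS2 (10.7%), VARS2 (8.15%) and YARS2 (1.48%).

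Expected counts were rounded, filtered with filterByExpr, scaled by TMM and compared between groups with edgeR 4.0.16 (quasi-likelihood, condition as the only term, R 4.3.3). P-values were adjusted by Benjamini-Hochberg over 14458 genes, with a threshold of 0.05. The common dispersion was 0.001179. The script was tested on simulated data. DESeq2 1.42.0 and limma 3.58.1 on log2(TPM + 1) and log2(TPM + 0.1) were alternatives. The share of all genes called by these alternatives was not counted, so their calls have no such share beside them. Such TPM fold changes understate those of low genes. Coordinates are from GENCODE, which held 99.84% of the gene identifiers, and promoters from RefSeq (GRCh38.p14).

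The genes and lists were chosen from general knowledge with earlier results of these data known. Synthetases past the threshold and the 3 highest and 3 lowest fold changes per compartment were described in full. Of each other list at most 3 genes per direction past the threshold, plus EIF2AK1 and ATF4, were described with their counts. Counting precision follows from 107 to 8212 counts per synthetase and library. 1 marker gene is not reported here.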

Additional observations from a re-analysis of the deposited data

How the results depend on the processing

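The analysis was repeated with RLE factors, without composition scaling (library size only), with DESeq2, without a count filter, with a stricter one (20 counts or more throughout a group), with a replicate block, with limma on TPM (pseudocounts 1 and 0.1), and with posterior mean counts in edgeR. It was also repeated with each library removed and with GARS1 and KARS1 removed. The counts of pairs, of the ATF4 lists and of signs were put through them after the values were seen. Where 1 library remained in a group, its spread was taken from the other group. The cause of the changes below was not tested.

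AARS1 and FARSA kept their direction in all 13 alternatives that were fitted for single genes and passed the threshold in 11, with log2 fold changes of -0.41 to -0.36 and 0.28 to 0.39. Adjusted p ranged from 7.15e-14 to 0.0673 for AARS1 and from 4.4e-07 to 0.199 for FARSA, and limma on TPM made neither call. The cytosolic count was 2 higher with no count filter and 0 higher and 0 lower with limma at either pseudocount. It was 4 lower with library size only, and leaving out 1 library gave 1 to 2 higher and 1 to 2 lower. The mitochondrial counts were 0 throughout. The cytosolic median was -0.069 with library size only and -0.035 to -0.0087 with a library left out. The mitochondrial median was -0.028 with library size only, -0.030 and -0.031 with limma, and -0.038 to 0.052 with a library left out, so its sign was not stable. Of the ATF4 response genes, 9 were lower with library size only, 3 with DESeq2, 3 with limma at either pseudocount and 3 to 4 with a library left out. Higher were 0 with limma and 1 to 2 with a library left out. The pairs with the mitochondrial enzyme the more positive numbered 7 to 10 with a library left out.

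The same-numbered libraries did not deviate together across genes (correlation of their deviations from the group means 0.0047). This is a single comparison and cannot show whether libraries of the same number were prepared together. With the replicate block, the cytosolic counts were 1 higher and 1 lower, the medians -0.032 and 0.013, and TRNT1 lost its call (adjusted p = 0.0504).

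Of 44 genes followed singly, 12 synthetases and SLC38A2 changed sign in at least 1 alternative. With library size only the value was -0.016 for FARSB, -0.014 for QARS1, -0.016 for TARS1, -0.026 for IARS2, -0.030 for PARS2 and -0.011 for VARS2. With limma at the pseudocounts of 1 and 0.1 it was -0.0036 and -0.0037 for FARSB, 0.0019 and 0.0019 for NARS1, -0.081 and -0.082 for TARS1, -0.041 and -0.041 for IARS2, -0.016 and -0.017 for PARS2, -0.020 and -0.020 for VARS2, and -0.026 and -0.026 for SLC38A2. With a library left out, it ranged from -0.17 to 0.070 for AARS2, -0.093 to 0.035 for CARS1, -0.014 to 0.065 for FARSB, -0.028 to 0.059 for IARS2, -0.073 to 0.018 for LARS2, -0.086 to 0.12 for PARS2, -0.010 to 0.065 for QARS1, -0.074 to 0.0035 for SARS1, -0.15 to 0.25 for SARS2, -0.0025 to 0.054 for TARS1 and -0.098 to 0.18 for VARS2. None of these genes passed the threshold as reported except SLC38A2.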

Other observations

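The deposited gene length, which RSEM weights by the isoforms it finds, differed between libraries for some genes, and TPM moves with it. For YARS2 it ran from 1168 to 1756 bases over the libraries, and the log2 fold change was 0.24 on counts and 0.023 in limma on log2(TPM + 1). For SLC38A2 it ran from 2748 to 3399 bases, and the log2 fold change was 0.20 on counts and -0.026 on log2(TPM + 1). Both are described as values only.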
